A study of Homo sapiens with 12 samples.

Results

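The genes for 4 receptors of the tumour necrosis factor (TNF) family (TNFRSF1A, TNFRSF1B, CD40 and LTBR), 5 TNF receptor-associated factors (TRAF1, TRAF2, TRAF3, TRAF5 and TRAF6) and the ubiquitin ligase cIAP1 (BIRC2) were followed in MM1S cells, an established human multiple myeloma line, during treatment with NGI-1. NGI-1 is a small-molecule inhibitor of the oligosaccharyltransferase complex, which attaches N-linked glycans to proteins entering the endoplasmic reticulum. The 10 genes were chosen by symbol for their place in the pathway, and all 10 were found among the 59276 features of the deposited table. Of these features 11939 reached 1 TPM, a length-corrected share of all transcripts, in at least 3 libraries and were tested, and 7 of the 10 genes were among them. LTBR, TRAF1 and TRAF5 were not.

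Total RNA was sequenced from 12 libraries, 3 each at day 0 (H1, H2 and H3), day 2 (H4, H5 and H6), day 3 (H7, H8 and H9) and day 5 (H10, H11 and H12). Between 18164 and 20407 features per library were listed above 0 TPM. The labels give MM1S cells and NGI-1 for every library, those at day 0 included, and no dose. The study's text treats the day 0 cells as untreated. No label says whether the 3 libraries of a day came from separate cultures, so that the p-values measure the spread between these libraries, which may be technical. As a model, the data describe 1 cell line, and the 3 treated days were set against the same 3 day 0 libraries.

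In TNF family signalling, a trimeric ligand on one cell or in solution draws together its receptors, and the receptors' cytoplasmic tails recruit TRAF proteins. TRAF2 brings the ubiquitin ligases cIAP1 and cIAP2 (BIRC2 and BIRC3) to the complex, where ubiquitin chains switch on the canonical NF-κB pathway. In resting cells TRAF3, TRAF2 and the cIAPs together mark the kinase NIK (MAP3K14) for destruction, which holds the non-canonical NF-κB pathway off, and loss of TRAF3, TRAF2 or the cIAP genes is a recurrent lesion of multiple myeloma. Plasma cells depend on receptors of this family, above all BCMA (TNFRSF17), for survival signals.

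RefSeq promoter windows (GRCh38.p14) were matched by symbol for 9 of the 10 genes, in 14 windows of 300 bases, with 250 bases before each start site. The kappaB consensus, a motif of 10 letters, was read on only 1 strand of each window, the one printed below. On that strand it was present in 1 of the 14 windows, that of TRAF3, and in 8.4% of all 35116 windows of this length. The motif does not equal its own reverse complement, so matches on the other strand were not looked for. The 120 bases before the start are shown for the 3 genes called lower on both scales at day 5 and for BIRC2, the 1 called higher after rescaling. BIRC2 also had a window at chr11:102347124-102347423 for another start site, which is not shown (71.7% G and C in its 120 bases). Capitals mark the match to the motif. All 4 genes lie on the plus strand.
TNFRSF1B, chr1:12166871-12166990: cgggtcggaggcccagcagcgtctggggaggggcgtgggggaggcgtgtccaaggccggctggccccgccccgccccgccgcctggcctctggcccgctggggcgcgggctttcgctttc
TRAF2, chr9:136886396-136886515: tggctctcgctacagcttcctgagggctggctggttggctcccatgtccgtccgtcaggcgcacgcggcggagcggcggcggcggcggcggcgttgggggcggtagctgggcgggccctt
TRAF3, chr14:102777329-102777448: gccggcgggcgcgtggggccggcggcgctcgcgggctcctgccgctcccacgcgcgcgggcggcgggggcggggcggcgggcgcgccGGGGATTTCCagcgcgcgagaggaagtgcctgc
BIRC2, chr11:102347094-102347213: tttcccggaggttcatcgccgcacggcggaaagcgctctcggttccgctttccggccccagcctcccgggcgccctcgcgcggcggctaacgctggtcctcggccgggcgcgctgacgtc
The match in TRAF3, GGGGATTTCC, began 33 bases before the start site. These stretches were rich in G and C, with 80.0% for TNFRSF1B, 75.0% for TRAF2, 85.8% for TRAF3 and 74.2% for BIRC2. Across the 14 windows the median was 70.0% and the range 48% to 86%, beside a median of 58.7% over all windows.

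In GENCODE release 29 (GRCh38) all 10 genes are protein coding. The gene models of TNFRSF1A (chromosome 12, 6328757 to 6342114, minus strand) and LTBR (chromosome 12, 6375045 to 6391571, plus strand) lie 32930 bases apart. BIRC2 (chromosome 11, 102347211 to 102378670, plus strand) lies 7807 bases from its paralog BIRC3. TNFRSF1B (chromosome 1, 12167003 to 12209228), TRAF2 (chromosome 9, 136881912 to 136926607) and TRAF3 (chromosome 14, 102777476 to 102911500) lie on plus strands, and the small RNA genes inside them were listed at 0 TPM in every library. LTBR alone overlaps a gene on the other strand, SCNN1A, which reached at most 0.00703 TPM.

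Levels are in TPM, which sums to the same total in every library, and differences are in log2(TPM + 1), tested with limma. A gene was called when its adjusted p was under 0.05 and its difference over 0.5 in size. The whole distribution moved with treatment. The median difference of all 11939 features from day 0 was -0.18 at day 2, -0.73 at day 3 and -0.99 at day 5. Differences from day 0 are therefore also given after rescaling every library so that its abundant features have a median ratio of 1, after which these medians were 0.013, -0.027 and -0.019. The cause of the shift was not tested. In bulk libraries fewer cells of a kind and less RNA per cell cannot be told apart. All 7 plasma cell markers were present, with a summed level of 2830 to 3714 TPM over the 12 libraries, although they moved in opposite directions: from day 0 to day 5 mean TNFRSF17 went from 577 to 2087 TPM, XBP1 from 1547 to 366 TPM and SDC1 from 496 to 144 TPM. Their part in the results was not tested. The markers of B cells, myeloid cells and fibroblasts stayed under 1 TPM. CD3D was at 0 TPM, as was EPCAM, whereas the T cell gene CD3E reached 7.22 TPM and the keratin gene KRT18 19.8 TPM.

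Among the receptors, TNFRSF1B showed the largest fall of the tested genes named above. It encodes TNFR2, the TNF receptor without a death domain that signals through TRAF2. At day 0 its level was 5.20, 5.50 and 5.34 TPM in H1, H2 and H3. At day 2 it was 0.808, 0.757 and 0.766 TPM, at day 3 0.194, 0.234 and 0.226 TPM, and at day 5 0.0333, 0.0302 and 0.0878 TPM. Each day lay below the day before it in every library, and the fall was already large at day 2. The mean at day 0 was 5.35 ± 0.147 TPM (SD, n = 3), which was 6.88 times the mean at day 2, 24.5 times that at day 3 and 106 times that at day 5. Without H12 the day 0 mean was 168 times the day 5 mean, and with rescaled libraries the 3 folds were 5.85, 13.4 and 47.4. TPM values this low rest on few reads, whose number TPM does not keep. The difference from day 0 was -1.84 at day 2, -2.38 at day 3 and -2.59 at day 5 (SE 0.105, adjusted p = 3.14e-08, 2.67e-10 and 6.66e-11 from limma). After rescaling it was -1.504, -1.85 and -2.09, called on each day. The added 1 TPM holds these differences down, since the treated levels are under 1 TPM. TNFRSF1B passed the filter only through its day 0 libraries. The filter thus fixed the direction of its differences from day 0, so that the fall and its p-values are a description.

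TNFRSF1A encodes TNFR1, the TNF receptor with a death domain, which recruits TRADD and RIPK1. Its level was 3.10, 3.74 and 4.42 TPM at day 0 and 2.65, 4.12 and 2.65 TPM at day 2, so that these days overlapped. At day 3 it was 0.983, 2.00 and 1.02 TPM, with H8 the high library, and at day 5 0.746, 1.15 and 1.495 TPM. Days 3 and 5 overlapped each other and lay below both earlier days. The difference from day 0 was -0.21 at day 2, or -0.026 rescaled, and was not called (adjusted p = 0.423 and 0.922 from limma). It was -1.04 at day 3 and -1.16 at day 5, called on both days (SE 0.202, adjusted p = 3.07e-04 and 9.61e-05 from limma). Rescaled, the values were -0.45 and -0.36, neither of them called (adjusted p = 0.0411 and 0.0838 from limma). The level of TNFRSF1A over that of TNFRSF1B in the same library, which no scaling changes, stood at 0.701 ± 0.117 before treatment, and at 4.06 ± 1.20, 6.04 ± 2.18 and 25.8 ± 10.9 on days 2, 3 and 5 (SD, n = 3). On those days the divisor, TNFRSF1B, was at most 0.808, 0.234 and 0.0878 TPM. Small shifts in it therefore move the ratio widely, which ran from 17.0 to 38.0 at day 5. No test was made of these ratios.

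CD40, the receptor for the T cell ligand CD40L, was near 1 TPM throughout and passed the filter only through the libraries of days 2 and 3. It stood at 0.992, 0.744 and 0.691 TPM at day 0, 1.29, 1.41 and 1.71 TPM at day 2, 1.13, 1.09 and 1.08 TPM at day 3, and 0.562, 0.753 and 0.319 TPM at day 5. Days 2 and 3 lay above day 0 in every library and day 5 overlapped it. The difference from day 0 was 0.45 at day 2, 0.22 at day 3 and -0.23 at day 5 (SE 0.134, adjusted p = 0.0149, 0.148 and 0.118 from limma), with no call since none passed both thresholds. The fall from day 2 to day 5 was called at -0.68 (adjusted p = 3.30e-04 from limma). After rescaling the difference from day 0 was 0.48, 0.61 and 0.26, called higher at day 3, and the fall from day 2 to day 5 was -0.22 and not called (adjusted p = 0.231 from limma).

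The receptor for lymphotoxin, LTBR, ranged from 0 to 0.0934 TPM over the 12 libraries, so that its messenger RNA was not detectable above trace levels on any day. With no filter on low values its difference from day 0 was between -0.038 and 0.019, with adjusted p from 0.542 to 1 from limma.

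TRAF2, the adaptor through which most of these receptors reach the cIAPs, fell on each day. It was at 9.96, 9.33 and 9.94 TPM at day 0, 4.36, 6.16 and 6.23 TPM at day 2, 2.75, 2.96 and 2.38 TPM at day 3 and 1.41, 1.62 and 2.09 TPM at day 5, with no overlap between any 2 days. H4 was the low library of day 2. The mean fell from 9.74 ± 0.360 TPM to 1.71 ± 0.352 TPM at day 5 (SD, n = 3), and the day 0 mean was 5.71 times the day 5 mean. The difference was -0.72, -1.54 and -1.997 at days 2, 3 and 5 (SE 0.146, adjusted p = 0.00137, 4.58e-07 and 1.94e-08 from limma). Rescaled, it was -0.49 at day 2, which fell short of the fold threshold, and was called lower at -0.81 at day 3 and -1.05 at day 5. At days 3 and 5 the fall of TRAF2 was thus called on either scale.

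TRAF3, the adaptor that docks NIK for destruction, followed the same order of days. The level was 8.24, 7.34 and 8.26 TPM at day 0, 5.50, 5.72 and 7.13 TPM at day 2, 3.37, 3.76 and 2.93 TPM at day 3, and 2.34, 1.60 and 2.62 TPM at day 5. No day overlapped another. The difference of -0.34 at day 2 was not called (SE 0.148, adjusted p = 0.0804 from limma), and those of -1.04 at day 3 and -1.5004 at day 5 were (adjusted p = 2.06e-05 and 3.90e-07 from limma). After rescaling TRAF3 was at -0.13, -0.31 and -0.53, and only the last was called lower (adjusted p = 0.00357 from limma). Within libraries, TRAF2 over TRAF3 was 1.23 ± 0.0380 at day 0 and 0.803 ± 0.205 at day 5 (SD, n = 3), with every day 0 library above every treated one.

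TRAF6 serves CD40 and the interleukin-1 and Toll-like receptors. It was at 6.06, 4.24 and 5.38 TPM at day 0 and 7.47, 6.36 and 5.55 TPM at day 2, and these overlapped. At day 3 it was 2.65, 3.67 and 2.58 TPM and at day 5 1.84, 1.98 and 3.57 TPM. These days overlapped each other and lay below every library of days 0 and 2. The difference from day 0 was 0.26 at day 2, not called, and -0.65 and -0.87 at days 3 and 5, both called lower (SE 0.193, adjusted p = 0.288, 0.00699 and 7.98e-04 from limma). These values lay 0.080 and 0.12 above the median of all features at days 3 and 5, and after rescaling the direction turned, to 0.034 and 0.070 with no call. The rescaled value at day 2 was 0.44, under the fold threshold (adjusted p = 0.0407 from limma). The call at day 3 was also lost without the 20 most abundant features (-0.48). Within libraries the ratio of TRAF6 over TRAF2 was 0.535 ± 0.0771 at day 0 and 1.41 ± 0.260 at day 5 (SD, n = 3), with no overlap.

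The inducible adaptor TRAF1, a common NF-κB target gene, lay between 0.215 and 0.435 TPM in all 12 libraries. TRAF5, a relative of TRAF2 and TRAF3 with a role in CD40 signalling, was at 0.210, 0.153 and 0.183 TPM at day 0 and at or under 0.124 TPM in the 9 treated libraries, 2 of them listed at 0. With no filter, the difference of TRAF5 from day 0 was -0.15, -0.15 and -0.17 (adjusted p = 0.0590, 0.0400 and 0.0171 from limma), under the fold threshold. At levels so far below 1 TPM neither gene gives a firm difference.

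BIRC2 encodes cIAP1, the ligase that TRAF2 carries. It was the most abundant of the 10 genes, at 20.8, 18.7 and 18.5 TPM at day 0, 29.8, 24.2 and 23.5 TPM at day 2, 26.0, 24.3 and 23.8 TPM at day 3 and 22, 22.7 and 22.4 TPM at day 5. Every treated library lay above every day 0 library, by a small margin at day 5. The difference from day 0 was 0.39, 0.34 and 0.20 (SE 0.103, adjusted p = 0.00729, 0.00827 and 0.0840 from limma), and none passed the fold threshold. Set against the falling median of all features, BIRC2 rose. Rescaled levels averaged 12.9 ± 0.939 at day 0, 20.3 ± 2.74 at day 2, 30.2 ± 2.56 at day 3 and 35.1 ± 4.21 at day 5 (TPM after rescaling, SD, n = 3). The rescaled difference was 0.61, 1.16 and 1.37, called higher on each day (adjusted p = 9.54e-04, 1.57e-06 and 2.23e-07 from limma).

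**Figure D1:**
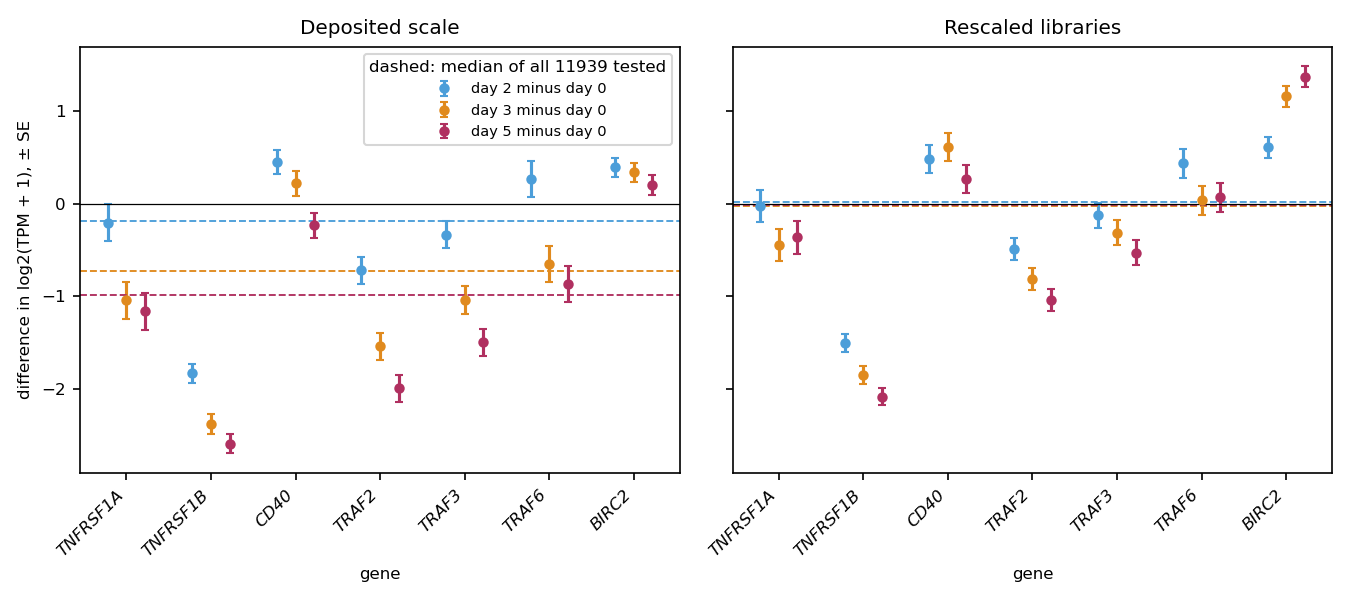
Difference from day 0 in log2(TPM + 1) with its standard error (y axis) for the 7 tested genes (x axis) at days 2, 3 and 5, on the deposited scale (left) and with rescaled libraries (right). Dashed lines mark the median of all tested features, and TNFRSF1B and TRAF2 lie below them and BIRC2 above them on each day in both panels.

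In counts of calls against day 0, 2 of the 7 tested genes were lower at day 2 (TNFRSF1B and TRAF2), 5 at day 3 and the same 5 at day 5 (with TNFRSF1A, TRAF3 and TRAF6), and none was higher on any day by limma at both thresholds. At an unadjusted p under 0.05, with no fold threshold, 2 of the 7 were higher at day 2 (BIRC2 and CD40). At day 3 it was 1 (BIRC2) and at day 5 it was 0. The share of all features at this looser threshold was not computed, so such counts, here and below, are descriptions only. At both thresholds the background was large: limma called 23.2% of all tested features lower and 8.04% higher at day 2. For day 3 these shares were 61.5% and 7.59%, and for day 5 they were 69.8% and 7.73%. After rescaling, TNFRSF1B alone was lower and BIRC2 alone higher at day 2, against 11.4% and 12.9% of all features. At day 3 TNFRSF1B and TRAF2 were lower and BIRC2 and CD40 higher, against 24.2% and 23.9%. At day 5 TNFRSF1B, TRAF2 and TRAF3 were lower and BIRC2 higher, against 26.9% and 27.5%. With 7 genes, and with TNFRSF1B and CD40 tested only because of the days on which they were high, these shares do not set the genes apart from other features.

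Between treated days the calls depended on the scale. On the deposited scale TNFRSF1A, TNFRSF1B, TRAF2, TRAF3 and TRAF6 were called lower at day 3 than at day 2, by -0.84, -0.55, -0.82, -0.71 and -0.92, where 55.5% of all features were called lower, 3.22% higher, and the median feature moved by -0.57. After rescaling none of these 5 was called by limma (-0.42, -0.35, -0.32, -0.19 and -0.40), although TNFRSF1B and TRAF2 had adjusted p = 0.0104 and 0.0392 from limma, and BIRC2 was called higher (0.56), where 13.6% of all features were called lower and 14.3% higher. From day 3 to day 5 none of the 7 was called by limma, against 13.1% lower and 0.67% higher, or on the rescaled data, against 2.03% and 4.43%. At an unadjusted p under 0.05, 3 of the 7 were lower at day 5 than at day 3, namely CD40, TRAF2 and TRAF3. Their differences of -0.45, -0.45 and -0.46 fell short of the fold threshold (adjusted p = 0.0236, 0.0338 and 0.0345 from limma). The share of all features at that unadjusted threshold was not computed. From day 2 to day 5, 6 of the 7 were called lower, all but BIRC2, against 69.8% lower and 4.35% higher. After rescaling TNFRSF1B (-0.58) and TRAF2 (-0.56) stayed called lower, TNFRSF1A, CD40, TRAF3 and TRAF6 did not (-0.34, -0.22, -0.40 and -0.37), and BIRC2 was called higher (0.76), against 18.1% lower and 19% higher. In the order of mean levels, neighbouring days not called apart were days 0 and 2 and days 3 and 5 for TNFRSF1A, days 3 and 5 for TNFRSF1B and TRAF2, days 0 and 2 and days 3 and 5 for TRAF3 and TRAF6, and every neighbouring pair for CD40 and BIRC2.

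The partners of the complex that marks NIK for destruction moved apart at the RNA level. BIRC2 over TRAF2 in the same library was 2.09, 2.003 and 1.86 in H1 to H3, 6.83, 3.93 and 3.77 in H4 to H6, 9.47, 8.22 and 10.04 in H7 to H9 and 15.6, 14.01 and 10.7 in H10 to H12. The days did not overlap, and the mean went from 1.99 ± 0.116 to 13.5 ± 2.51 (SD, n = 3). BIRC2 over TRAF3 went from 2.44 ± 0.170 at day 0 to 4.32 ± 1.06, 7.44 ± 0.860 and 10.7 ± 3.03 at days 2, 3 and 5. BIRC2 made up 36.7% ± 1.60 of the summed TPM of the 10 genes at day 0 and 72.5% ± 4.14 at day 5 (SD, n = 3). These are ratios of RNA levels, given with no test, and say nothing of the proteins.

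Around these genes, 6 lists of pathway genes were described in the same way. Of 18 TNF family ligands, 2 were tested. Both reached 1 TPM only in treated libraries, so the filter fixed their direction and their rise is a description. TNFSF10, which encodes the death ligand TRAIL, went from 0.189 TPM at day 0 to 4.13, 7.85 and 5.44 TPM (difference 2.11, 2.90 and 2.44, rescaled 1.91, 3.23 and 3.07). CD70, the ligand of CD27, went from 0.371 TPM to 1.95, 1.68 and 2.14 TPM (difference 1.11, 0.94 and 1.17, rescaled 1.02, 1.25 and 1.76). The ligands of the 4 receptors were scarce in MM1S cells themselves: TNF reached at most 0.0447 TPM, LTA 0.141 TPM and LTB 0.435 TPM. CD40LG and TNFSF14, a further ligand of LTBR, were listed at 0 in every library.

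Of 25 other TNF receptors, 11 were tested. TNFRSF8 passed the filter only through day 0, RELT only through days 0 and 2 and TNFRSF10D only through treated libraries. Each was tested only because of the days on which it was high, so their changes are a description. The day 5 calls were 8 lower and 1 higher, where 69.8% and 7.73% of all features were so called, and the median was -0.88 beside -0.99 over all features. After rescaling, 3 were lower and 4 higher, where the shares over all features were 26.9% and 27.5%, with a median of -0.050. The largest fall in log2(TPM + 1) was in RELT, from 3.86 TPM at day 0 to 0.498 TPM at day 5 (difference -1.70, rescaled -1.01, both called). By the ratio of TPM, TNFRSF8 fell further, from 1.45 to 0.0185 TPM (difference -1.27, rescaled -0.94, both called). The receptor called higher at day 5 on the deposited scale was TNFRSF17, from 577 TPM to 1269, 2022 and 2087 TPM on days 2, 3 and 5 (difference 1.13, 1.81 and 1.85, rescaled 1.37, 2.67 and 3.08, called each time). TNFRSF14 was called higher at days 2 and 3 (0.78 and 0.72) and TNFRSF10D at day 2 (0.54), and both were called higher on each day after rescaling.

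Among the 6 other TRAF and TRAF-binding genes, all tested, day 5 brought 4 calls lower and 1 higher, or 1 lower and 2 higher on the rescaled data (69.8% and 7.73% of all features, or 26.9% and 27.5%). TRAF7 fell from 38.2 to 10.2 TPM (difference -1.79, rescaled -0.63), TRAF4 from 13.9 to 5.03 TPM (-1.30, and -0.21 with no call after rescaling) and TRAFD1 from 15.5 to 7.74 TPM (-0.92, and 0.20 with no call). TRAF3IP2, the adaptor of interleukin-17 receptors, was called higher at day 2 (0.67) and lower at day 5 (-0.51), and was at 0.33 with no call after rescaling at day 5. Its day 5 call was also lost without H1 (-0.45), H2 (-0.49), H10 (-0.42) or H12 (-0.49), and without the 20 most abundant features (-0.32). TANK, an adaptor that binds TRAFs and the kinase TBK1, was at -0.38 with no call at day 5 but was called higher after rescaling (0.80). TRAF3IP3 rose throughout, from 11.9 TPM to 21.5, 38.7 and 43.2 TPM (difference 0.80, 1.62 and 1.78, rescaled 0.99, 2.43 and 2.94, called each time).

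The 19 genes of the receptor-proximal ubiquitin and kinase complex were all tested, and 15 were lower and none higher by limma at day 5, nor was any higher at an unadjusted p under 0.05 (median -1.01), as against 1 lower and 4 higher after rescaling (median 0.067). Over all features the shares were 69.8% and 7.73%, or 26.9% and 27.5% rescaled, so that 15 of 19 was near the background. OTULIN, which removes linear ubiquitin chains, had the largest fall, from 15.1 to 4.28 TPM (difference -1.62, rescaled -0.54, both called). BIRC3, which encodes cIAP2, was at 1.47, 1.62 and 1.59 TPM at day 0, 2.50, 2.73 and 2.37 TPM at day 2, 4.23, 3.64 and 2.48 TPM at day 3 and 2.18, 2.19 and 1.62 TPM at day 5. It was called higher at day 3 (difference 0.78) and not at day 2 (0.46) or day 5 (0.22), and after rescaling it was called on each day (0.55, 1.33 and 1.01). Both cIAP genes were thus higher after rescaling on every treated day.

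In the non-canonical arm, MAP3K14, the gene of NIK itself, was at 1.503 TPM at day 0 and 1.36 TPM at day 2. It was at 0.404 TPM at day 3 and 0.391 TPM at day 5. MAP3K14 was called lower at day 3 (-0.83) and day 5 (-0.85) but not after rescaling (-0.43 and -0.32). It passed the filter only through days 0 and 2, on which it was high, so these falls are a description. NFKB2, whose product p100 is the precursor of p52, was called higher at day 2 (0.69) and lower at day 5 (-0.59). After rescaling it was called higher at days 2, 3 and 5 (0.90, 0.74 and 0.54). Its lower call at day 5 was also lost without H10 (-0.47) and without the 20 most abundant features (-0.30). RELB, the partner of p52, rose from 6.72 TPM to 18.1, 12.5 and 12.3 TPM, by 1.31, 0.82 and 0.79, or 1.47, 1.58 and 1.89 rescaled, and was called higher each time. CHUK, the kinase IKKα, and OTUD7B, a deubiquitinase that spares TRAF3, were lower at day 5 (-1.05 and -1.46) and not called after rescaling (0.090 and -0.41). Of the 5 genes, against 69.8% and 7.73% of all features, or 26.9% and 27.5% rescaled, 4 were lower and 1 higher at day 5 and, rescaled, none lower by limma and 2 higher, although 2 had an adjusted p under 0.05 for a lower level with differences under the fold threshold (MAP3K14 and OTUD7B). The median was -0.85, or 0.090 rescaled.

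Of the 6 genes of the death-signalling arm 5 were tested, and RIPK3 reached at most 0.227 TPM. At day 5, 3 were lower and none higher by limma, with 0 higher at an unadjusted p under 0.05, or 1 and 2 after rescaling (69.8% and 7.73% of all features, or 26.9% and 27.5%), and the median was -1.09, or 0.054 rescaled. MLKL, the executioner of necroptosis, fell from 3.85 to 0.616 TPM (-1.58, rescaled -0.86, both called). FADD and CASP10 were lower at day 5 (-1.09 and -1.58) and not called after rescaling (0.054 and -0.39). CASP8 was at -0.44 and its inhibitor CFLAR at 0.11, neither called, and both were called higher after rescaling (0.76 and 1.30).

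The features whose levels over the 12 libraries were most like TNFRSF1B, among 5433 with a mean of at least 10 TPM, were HSPA14, XPO1 and MICOS10 (Pearson r = 0.994, 0.993 and 0.991 across libraries that share their day). With rescaled libraries they were ACAA2, MCMBP and PCNA (r = 0.996, 0.993 and 0.992). For BIRC2 they were EPB41L4A-AS1, OAS1 and PLD4 (r = 0.884, 0.881 and 0.871), and RPP25L, IFT57 and ADPGK after rescaling (r = 0.989, 0.987 and 0.987). The nearest features of both genes thus differed between the scales.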

How the data were processed

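Total RNA of 12 MM1S libraries was sequenced as paired-end reads, with the same minimum depth for all samples per the labels. The submitters' processing notes name FastQC, Trimmomatic, STAR and Salmon and the build hg38, and their versions and annotation are not given in the sources used here. The authors deposited log2(TPM + 1) values for 59276 symbols, and TPM sums to the same total in each library. TPM keeps no read counts, so no counting interval is given and the depth behind a value is unknown.

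From these values limma 3.58.1 (R 4.3.3) was fitted once to the 4 days, with an intensity trend, over the 11939 features at 1 TPM or more in at least 3 libraries. Benjamini-Hochberg adjustment was made for each pair of days over all tested features. Calls needed an adjusted p under 0.05 and a difference over 0.5. The fit was tested on simulated data for day 5 against day 0 with 11939 genes. A small part of the genes was changed, by 1 or 2 in either direction, and the larger part of these was recovered. The simulation held no shift of the whole distribution, so it does not tell how calls fare under the shift seen here. Rescaling divided each library by a factor that set its median ratio over 5433 features with a mean of at least 10 TPM to 1. Alternatives were no filter, a minimum of 5 TPM, a pseudocount of 0.1, rescaling, removal of the 20 most abundant features, a fit for each pair of days, no trend, a threshold of 1 and leaving out each library. Groups came from the labels' time points, and replicate numbers only name libraries.

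The 10 genes, the lists and the tests were chosen with earlier results of these data known. Named from each list were the called genes with the largest fall and rise at day 5, every gene of lists of 6 or fewer, and BIRC3, TNFRSF17, TNFSF10 and MAP3K14. CD70, TNFRSF8, TNFRSF14, TNFRSF10D and the ligands of the 4 receptors were named after their values were seen. Positions came from GENCODE release 29 and promoter sequences from RefSeq (GRCh38.p14).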

Additional observations from a re-analysis of the deposited data

Results flagged for a closer look

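Each group held 3 libraries, too few to test any library as an outlier. The change from day 0 differed between treated days for 6 of the 7 tested genes, by limma's test of the difference between the days. From day 2 to day 3 the change was lower by -0.84 in TNFRSF1A, -0.55 in TNFRSF1B, -0.82 in TRAF2, -0.71 in TRAF3 and -0.92 in TRAF6. In each of them all day 3 libraries lay below all day 2 libraries. The share of all features so separated was not computed. From day 2 to day 5 the change was lower by -0.96 in TNFRSF1A, -0.76 in TNFRSF1B, -0.68 in CD40, -1.28 in TRAF2, -1.16 in TRAF3 and -1.13 in TRAF6. Of all tested features 55.5% were called lower from day 2 to day 3 and 69.8% from day 2 to day 5, with medians of -0.57 and -0.83. After rescaling only TNFRSF1B (-0.58) and TRAF2 (-0.56) from day 2 to day 5 stayed called among these 11 differences.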

How the results depend on the processing

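No paired analysis was possible because the labels carry no replicate numbers and name libraries only in sequence. Of 705 alternative values for the 10 genes, 655 kept their direction and their side of the thresholds. No filter, pairwise fits, no trend and a minimum of 5 TPM changed none of those they gave. These settings and the stricter threshold leave each difference as it was, so they could not turn its direction. Nor could leaving out a library of a day outside the pair compared. The 655 is therefore not a measure of stable direction. Rescaling, which changes the levels themselves, kept 14 of 35. Removal of the 20 most abundant features kept 29 of 35, and a pseudocount of 0.1 kept 30 of 35.

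The scale mattered most. After rescaling, the genes called lower numbered 1, 2 and 3 at days 2, 3 and 5 in place of 2, 5 and 5, and those called higher 1, 2 and 1 in place of 0. Without the 20 most abundant features 1 was higher on each day (CD40 at day 2 at 0.56, BIRC2 at days 3 and 5 at 0.59 and 0.52). A pseudocount of 0.1 gave 1 higher at day 2 (CD40, 0.79), and a threshold of 1 left 1 lower at day 2. TRAF6 was no longer called lower at day 3 without the 20 most abundant features (-0.48), nor at days 3 and 5 with a threshold of 1. Leaving out 1 library gave 2, 5 and 5 lower throughout and 0 to 1 higher at day 2, since CD40 was called without H1 (0.52) or H4 (0.50), with 0 higher at days 3 and 5.

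Rescaling turned the difference from day 0 of CD40 at day 5 (0.26) and of TRAF6 at days 3 and 5 (0.034 and 0.070), the difference from day 2 to day 3 of CD40 (0.12) and BIRC2 (0.56), and that from day 3 to day 5 of TNFRSF1A (0.083), TRAF6 (0.036) and BIRC2 (0.21). Leaving out 1 library moved TNFRSF1A from day 3 to day 5 between -0.24 and 0.075, turning it without H8 or H10 (0.016), and BIRC2 from day 2 to day 3 between -0.12 and 0.048, turning it without H4. BIRC2 there was 0.099 without the 20 most abundant features. From day 3 to day 5, TRAF2 was called lower without H9 (-0.52) or H12 (-0.55), TRAF3 likewise (-0.53 and -0.56), and CD40 without H11 (-0.55).

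Among pathway genes, rescaling turned TRAF7 at day 2 (0.11), TANK at days 3 and 5 (0.64 and 0.80), TRAF3IP2 at days 3 and 5 (0.35 and 0.33), TRAFD1 at days 2, 3 and 5 (0.14, 0.45 and 0.20), MAP3K14 at day 2 (0.049), CHUK at days 3 and 5 (0.095 and 0.090), NFKB2 at days 3 and 5 (0.74 and 0.54), FADD at day 5 (0.054), CASP8 at days 2, 3 and 5 (0.22, 0.67 and 0.76) and MLKL at day 2 (0.049). Without the 20 most abundant features TANK (0.055) and NFKB2 (0.17) turned at day 3, TRAFD1 at day 2 (0.013) and CASP8 at days 2 and 3 (0.083 and 0.065). Leaving out 1 library moved TRAF7 at day 2 between -0.28 and 1.7e-04, NFKB2 at day 3 between -0.14 and 0.026 and CASP8 at day 2 between -0.073 and 0.054. The cause of these turns was not tested. Levels under 1 TPM limit TNFRSF1B after day 0, CD40, LTBR, TRAF1 and TRAF5, and the reads behind them are not known.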
